A study of Mus musculus with 3 samples.

Results

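The mRNAs of 10 genes of the p53 network were followed in RIP-seq (sequencing of RNA that is immunoprecipitated with a protein) of YTHDF2, a reader protein that binds N6-methyladenosine (m6A) in RNA and promotes the decay of its targets. The members were chosen by name, as the rows Trp53, Mdm2, Mdm4, Cdkn1a, Bbc3, Pmaip1, Ccng1, Sesn1, Sesn2 and Trp53inp1 of a count table of 49997 genes, and all 10 were found. The series compared RNA recovered with an antibody against YTHDF2 with input RNA in mouse embryonic stem cells (ESCs). The input group held 1 library and the YTHDF2 IP group held 2 libraries, and every library came from cells treated with doxycycline (Dox) for 24 h. The labels name the line E14, cultured with leukemia inhibitory factor on gelatin. The study describes its ESCs as carrying a tdTomato reporter under the MERVL promoter and a Dox-inducible Dux transgene, which moves them toward a state that resembles the 2-cell (2C) embryo. The labels do not name these transgenes, and the E14 cells of the labels were taken to be that line, in which case input and IP share both. No library of untreated cells and no IP with a control antibody was analysed here.

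p53 is a transcription factor that is kept low by the ubiquitin ligase MDM2 and by its relative MDM4, and that accumulates under DNA damage and other stress. It then switches on genes that arrest the cell cycle, trigger apoptosis or adjust metabolism, and Mdm2 itself is among these targets, which closes a negative feedback loop. Mouse ESCs are known for a high level of p53, and p53 is among the known activators of Dux.

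The counts of the libraries summed to between 35259827 and 36986994. In the input, the 10 ESC markers examined, among them Pou5f1, Nanog and Sox2, had between 149.5 and 1889 CPM, that is, counts scaled to the library size with the TMM factors of edgeR. The 7 markers of the 2C-like state had between 28.3 and 878 CPM, and of 6 fibroblast markers 2 were at 0 and the highest, Thy1, was at 28.1 CPM. The IP libraries differed from each other with an SD of 0.205 on the log2 scale over the 12620 genes that averaged 100 counts or more. For the 10 members their difference was between 0.013 for Mdm4 and 0.296 for Sesn1. The libraries hold RNA of bulk cells, so a difference in the number of cells that express a gene and in its RNA per cell cannot be told apart. Because the input had no replicate, variation between inputs was not measured, and each p-value measures only the spread between the IP replicates, which the labels do not say came from separate cultures.

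The members differed in the direction and size of their change between input and IP. Compared with the input, the transcript of the apoptosis gene Bbc3 was enriched in IP, those of Trp53, Pmaip1 and Trp53inp1 were depleted, and the other 6 changed by less than 2-fold. A gene was called enriched or depleted when it differed by over 2-fold and its p-value, adjusted by Benjamini-Hochberg over all 19601 genes tested, was under 0.05 in the edgeR quasi-likelihood test. All 10 members passed the filter on low counts, with no fewer than 962 counts in any library. Among all genes tested, 15.0% were enriched, compared with 1 of the 10 members, and 13.0% were depleted, compared with 3 of the 10. Without the limit on fold, 3 members were higher in IP, where 28.4% of all genes were, and 7 members were lower, where 28.9% were. With a dispersion fixed at 0.1, which allows for more variation than the IP libraries showed, these counts fell to 1 higher (Bbc3) and 1 lower (Trp53), and the other 8 members did not pass, with adjusted p-values of edgeR between 0.118 and 0.775. The share of all genes that passed at any fold was not counted for this setting. Past 2-fold, 1577 of the 19601 genes were then enriched and 1531 depleted. The median log2 fold change of the members was −0.42 and that of all genes was 0.0063, with quartiles at −0.72 and 0.81. For each of the 10, both IP libraries lay on the same side of the input. This was not counted over all genes, so it describes the members and does not set them apart.

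**Figure D1:**
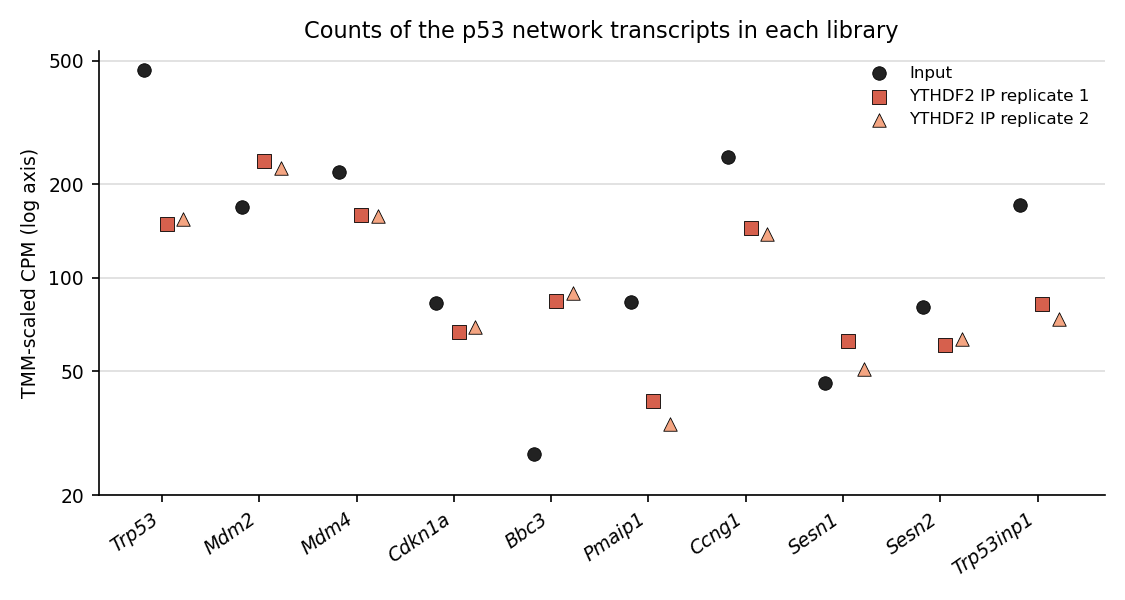
Counts of the 10 p53 network transcripts in each library, as TMM-scaled CPM on a log axis (1 input library, black circles, and 2 YTHDF2 IP libraries, squares and triangles). Bbc3 rose from 27.2 CPM in the input to 84.2 and 89.6 CPM in the IP libraries, whereas Trp53 fell from 467 CPM to 149 and 155 CPM.

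The transcripts differ in where they carry GGACT, the most common form of the m6A motif. m6A was not measured in these libraries, so a match to these letters is a description and not a methylated site. In the longest curated RefSeq transcript of each gene (GRCm38.p6), only those of Bbc3 and Sesn2 held GGACT on the sense strand within 100 bases of either side of the stop codon, the region where m6A is most often found. Of 18074 such windows of 200 bases over all genes, 23.6% held it. The transcript of Trp53 held no GGACT, and its GGAC nearest to the stop codon is printed in place of it. The 5 sequences below, from 5′ to 3′ on the sense strand, are the matches nearest to the stop codon in the most enriched member, in the most depleted member, in Mdm2 as the other member of its loop, in Sesn2 as the member with the densest motif, and in Trp53inp1 as a depleted member with a long 3′UTR. Capitals mark GGACT, or GGAC in Trp53, and distances run from the A of the motif to the last base of the stop codon.
Bbc3, coding exon, chr7:16317169-16317197, plus strand, 51 bases before the stop codon ends: aatctcttcatgGGACTcctccccttacc
Trp53, 3′UTR, chr11:69591642-69591669, plus strand, 348 bases after the stop codon: cagccagttgttGGACcctggcacctac
Mdm2, 3′UTR, chr10:117689927-117689955, minus strand, 269 bases after the stop codon: ctccgcttggaaGGACTttggaagtgtat
Sesn2, 3′UTR, chr4:132493637-132493665, minus strand, 65 bases after the stop codon: tcctctgtgcaaGGACTtctgtgtctgga
Trp53inp1, 3′UTR, chr4:11173230-11173258, plus strand, 3551 bases after the stop codon: agtatgtatgaaGGACTacaactagaaga

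Trp53 (chromosome 11, 69580348 to 69591873, plus strand, mm10), which encodes p53, had the strongest depletion of the members. The input held 16526 of its counts, IP replicate 1 held 5382 and IP replicate 2 held 5663. Both IP libraries were far below the input and close to each other, with log2 ratios to it of −1.65 and −1.60. The fitted value of −1.62 ± 0.055 (SE) on the log2 scale is a 3.08-fold depletion (adjusted p = 1.31e-24, edgeR quasi-likelihood test). This placed Trp53 at percentile 7.41 of all genes tested. A processed copy of Trp53 on chromosome 17, annotated as Trp53-ps, is 87.6% identical to the transcript over 1792 bases, and its own counts were 198 (input), 18 and 30 (IP).

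The transcripts of both p53 inhibitors were less than 2-fold from the input, on opposite sides of it. Mdm2 (chromosome 10, 117688875 to 117710758, minus strand), the ubiquitin ligase that marks p53 for degradation and is also its target, was counted 5984 times in the input, 8571 times in IP replicate 1 and 8278 times in IP replicate 2. Both IP libraries were above the input, and the fitted value of 0.45 ± 0.062 (SE) corresponded to a level 1.37-fold higher in IP (adjusted p = 4.6e-08, edgeR quasi-likelihood test). Mdm4 (chromosome 1, 132986105 to 133030587, minus strand), which binds p53 and blocks its activity as a transcription factor, was counted 7769 times in the input, against 5759 and 5791 times in IP. Both were below the input by nearly the same amount, at log2 ratios of −0.46 and −0.47, and the fitted value was −0.47 ± 0.06 (SE), with an adjusted p of 1.51e-08 in the same test. With a trend on GC content over all genes removed, Mdm4 was at −0.031 and Mdm2 at 0.83. The log2 ratio of Mdm2 exceeded that of Mdm4 by 0.95 in IP replicate 1 and by 0.89 in IP replicate 2. It exceeded that of Trp53 by 2.14 and 2.01. These differences between genes are descriptions, as each rests on the same input library.

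The 2 BH3-only genes of the network, both direct p53 targets that promote apoptosis by opposing the survival proteins of the BCL2 family, went opposite ways. Bbc3 (chromosome 7, 16308398 to 16318334, plus strand), which encodes PUMA, rose from 962 input counts to 3039 and 3282 IP counts. Both IP libraries were over 2-fold above the input, with log2 ratios of 1.63 and 1.72. The fitted value was 1.68 ± 0.092 (SE), a 3.20-fold enrichment (adjusted p = 2.36e-18, edgeR quasi-likelihood test), at percentile 90.1 of all genes. Pmaip1 (chromosome 18), which encodes NOXA, fell from 2956 input counts to 1445 and 1239 IP counts. Both were over 2-fold below the input, at log2 ratios of −1.06 and −1.30, and the fitted value was −1.18 ± 0.095 (SE), a 2.26-fold depletion with an adjusted p of 2.2e-13 in the same test. With the GC trend removed, neither was past 2-fold, with Bbc3 at 0.80 and Pmaip1 at −0.63. Per length of the merged exons, the input held 3.73 times as much Pmaip1 as Bbc3, and by the longest curated transcripts it held 62.0 TPM (counts divided by length, then scaled to the library) of Pmaip1 and 25.6 TPM of Bbc3. In the IP libraries this order was turned, with 1.73 and 2.18 times as much Bbc3 as Pmaip1 over merged exons.

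The targets that act on the cell cycle were lower in IP and under the 2-fold threshold. Cdkn1a (chromosome 17, 29090979 to 29100722, plus strand) encodes p21, the inhibitor of cyclin-dependent kinases through which p53 arrests the cycle. Its counts were 2936 (input), 2415 (IP replicate 1) and 2543 (IP replicate 2). Both IP libraries were slightly below the input, and the fitted value of −0.28 ± 0.078 (SE) was a level 1.22-fold lower (adjusted p = 0.00186, edgeR quasi-likelihood test). Scaling the fit to TPM moved the median gene up by 0.148 on the log2 scale, since the length of a gene cancels in its own ratio and only the scale of the libraries moves. On that scale Cdkn1a was at −0.14 and did not pass, with an adjusted p of 0.138. Ccng1 (chromosome 11, 40748552 to 40755309, minus strand) encodes cyclin G1, which recruits a phosphatase to MDM2. Its counts were 8701 (input), 5237 (IP replicate 1) and 5092 (IP replicate 2). Both IP libraries were below the input by similar amounts, and the fitted value of −0.79 ± 0.061 (SE) is a level 1.73-fold lower (adjusted p = 3.01e-14, edgeR quasi-likelihood test). With the GC trend removed Ccng1 was at −0.20 and Cdkn1a at −0.56.

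The sestrins, stress-induced proteins that restrain mTORC1, lay on opposite sides of the input. Sesn1 (chromosome 10, 41810574 to 41908436, plus strand) was counted 1621 times in the input, against 2264 and 1871 times in IP. Both were above the input, but its log2 ratios of 0.45 and 0.16 were the farthest apart of any member, and 1 library decides its size. The fitted value was 0.31 ± 0.104 (SE; adjusted p = 0.0115, edgeR quasi-likelihood test), and without IP replicate 1 it was 0.16. In DESeq2 Sesn1 did not pass, with an adjusted p of 0.0871. Sesn2 (chromosome 4, 132492804 to 132510456, minus strand), whose protein also senses leucine, was counted 2855 times in the input, against 2202 and 2334 times in IP. Both were below the input, and its fitted value was −0.37 ± 0.08 (SE), with an adjusted p of 0.000119 in the same test.

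Trp53inp1 (chromosome 4, 11156441 to 11174379, plus strand), a target whose protein promotes the phosphorylation of p53 and takes part in autophagy, was depleted. Its counts fell from 6058 to 2972 in IP replicate 1 and 2711 in IP replicate 2. Both IP libraries were over 2-fold below the input, at log2 ratios of −1.06 and −1.21. The fitted value of −1.13 ± 0.07 (SE), a 2.19-fold depletion, lay close to the fold threshold (adjusted p = 1.86e-16, edgeR quasi-likelihood test). With the GC trend removed it was −0.48 and under scaling to TPM it was −0.98, and the call was lost in both. With a dispersion fixed at 0.1, Trp53inp1 and Pmaip1 were not called, with adjusted p-values of 0.136 and 0.118, whereas Trp53 and Bbc3 were.

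**Figure D2:**
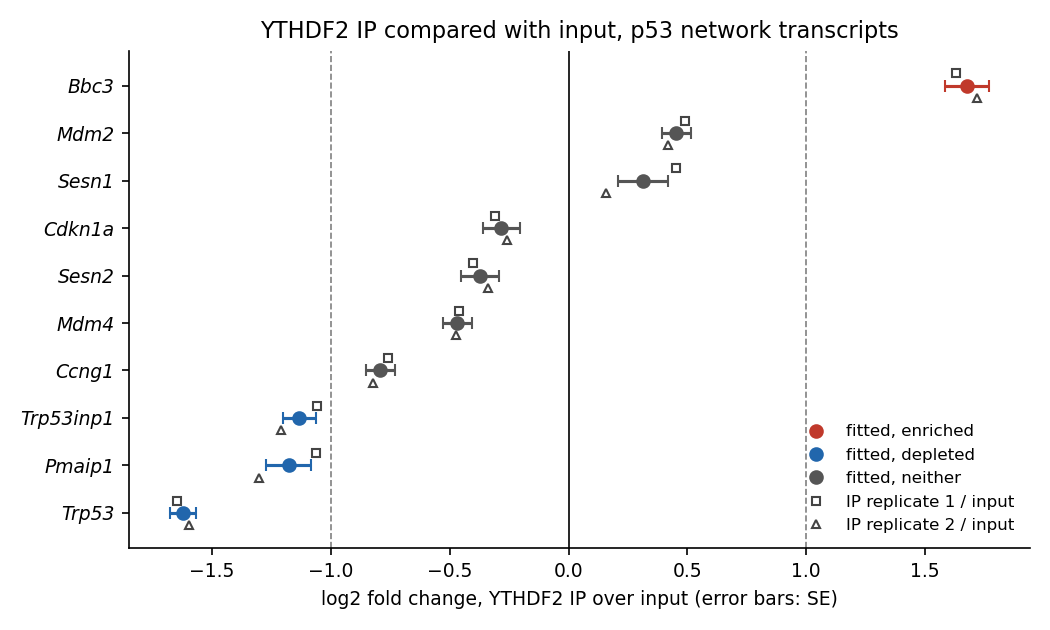
Log2 fold change of YTHDF2 IP over input for the 10 members, with filled circles and bars for the fitted value and its SE, open squares and triangles for the ratio of each IP library to the input, and dashed lines at the 2-fold threshold. Bbc3 lies above the upper threshold at 1.68, and Trp53, Pmaip1 and Trp53inp1 lie below the lower one at −1.62, −1.18 and −1.13.

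Levels per length were compared next, in TPM over the merged exons of each gene. In the input, Trp53 had the highest level at 401 TPM, followed by Ccng1 at 138 and Cdkn1a at 80.3. Trp53inp1, Pmaip1, Sesn2 and Mdm4 lay close together between 58.1 and 62.1 TPM, and with 1 input library their order has no error. Mdm2 was at 44.9, Sesn1 at 27.0 and Bbc3 lowest at 16.6 TPM. Trp53 was thus 24.1 times as high as Bbc3 in the input. In the IP libraries the members lay closer together, and the highest, again Trp53 at 142 and 147 TPM, was 4.31 and 5.29 times as high as the lowest, Pmaip1 at 33.0 and 27.7 TPM.

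By merged exons, the order of the levels below Trp53 changed between input and IP. Ccng1 and Cdkn1a again followed Trp53, at 90.4 and 86.2 TPM for Ccng1 and 71.9 and 74.2 TPM for Cdkn1a. Mdm2 came next at 70.0 and 66.3 TPM, and Bbc3 moved from the lowest place to the fifth, at 57.2 and 60.6 TPM. Sesn2, Mdm4 and Sesn1 followed, with Sesn1 at 41.1 and 33.3 TPM. Of neighbours in this order, only the 2 IP values of Trp53inp1, 33.2 and 29.6 TPM, overlapped those of another member, Pmaip1. The ratio of Trp53 to Mdm2 went from 8.94 in the input to 2.03 and 2.21 in IP, and that of Trp53 to Mdm4 from 6.90 to 3.03 and 3.17. Ratios and the order of genes depend on the length used. The merged exons of Mdm2, 7415 bases, are 2.39 times as long as its longest curated transcript, and by that transcript Mdm2 was at 107 TPM in the input and 168 and 159 TPM in IP. Trp53 by its transcript was at 492 TPM in the input and 175 and 180 TPM in IP, so that by transcript length Mdm2 came second in the IP libraries, above Ccng1 at 91.0 and 86.7 TPM. Bbc3 by its transcript was at 25.6 TPM in the input and 88.0 and 93.1 TPM in IP, which overlapped Ccng1 and was above Cdkn1a at 75.3 and 77.7 TPM. The change of a member between input and IP does not depend on this length.

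**Figure D3:**
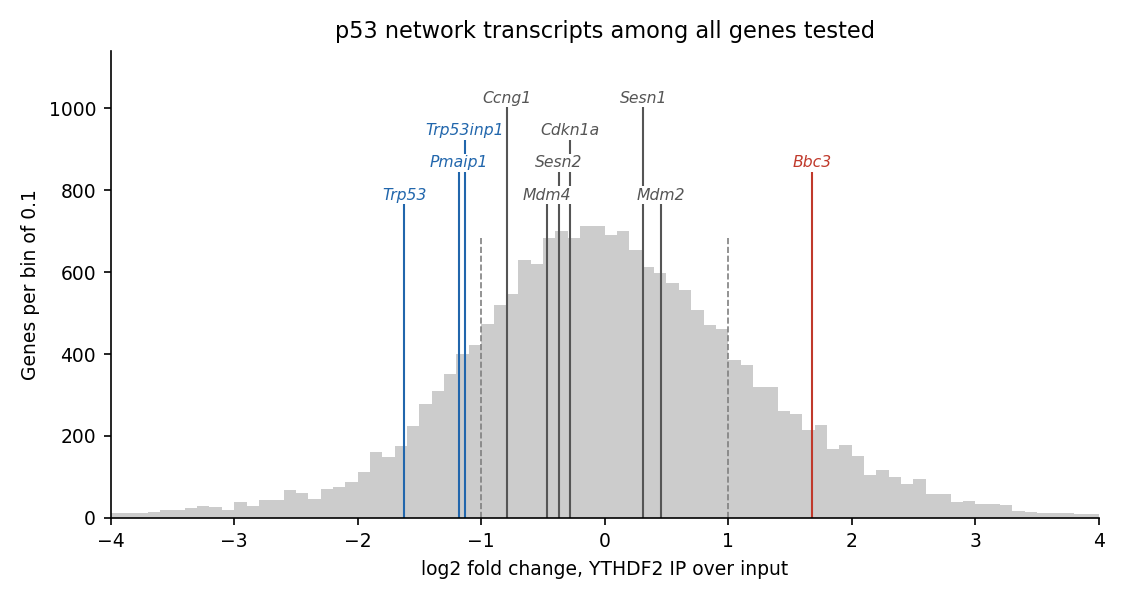
Distribution of the log2 fold change of YTHDF2 IP over input for all genes tested, in bins of 0.1 from −4 to 4, with lines at the 10 members and dashed lines at the 2-fold threshold. The members span from −1.62 for Trp53, at percentile 7.41, to 1.68 for Bbc3, at percentile 90.1.

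The members also differ in base composition, which moved with the ratio of IP to input across all genes. Genes in the lowest quartile of exonic GC content, up to 45.4%, had a median log2 fold change of −0.53, and genes in the highest quartile, from 54.4%, had a median of 0.43. Bbc3 has a GC content of 62.6%, at percentile 98.8 of all genes tested, and the trend over all genes stood at 0.87 there, which left it 0.80 above the trend. Trp53inp1 has the lowest GC content of the members at 38.8%, and with the trend removed it was at −0.48, while Pmaip1, at 41.7%, was at −0.63. None of these 3 was past 2-fold after that removal. Trp53, at 53.4%, lay where the trend was at 0.24, and with the trend removed it was at −1.86 and remained depleted. Sesn2, with a GC content of 59.6%, was below the trend, at −0.98. Sesn1 lay further above the trend than above the input, at 0.47. Mdm4 and Ccng1, at 43.3% and 40.8% GC, lay closer to the trend than to the input, and Mdm2 and Cdkn1a, at 44.0% and 54.4%, lay further from it. The density of exons also moved with the ratio. Genes in the lowest quartile, up to 1.28 exons per kilobase, had a median log2 fold change of 0.31, and genes in the highest, from 4.19, had a median of −0.33. Trp53 has 5.24 exons per kilobase, at percentile 85.3, and with that trend removed it was at −1.37 and remained past 2-fold. Bbc3, at 2.80 exons per kilobase, was at 1.62 after the same removal, Pmaip1 was at −1.47 and Trp53inp1 at −1.42, and Ccng1, at −1.01, was then just past 2-fold. Mdm2 moved toward 0, to 0.24, and Mdm4, Cdkn1a, Sesn1 and Sesn2 were at −0.65, −0.46, 0.33 and −0.29. The parts of GC content and exon density in these values were not tested.

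**Figure D4:**
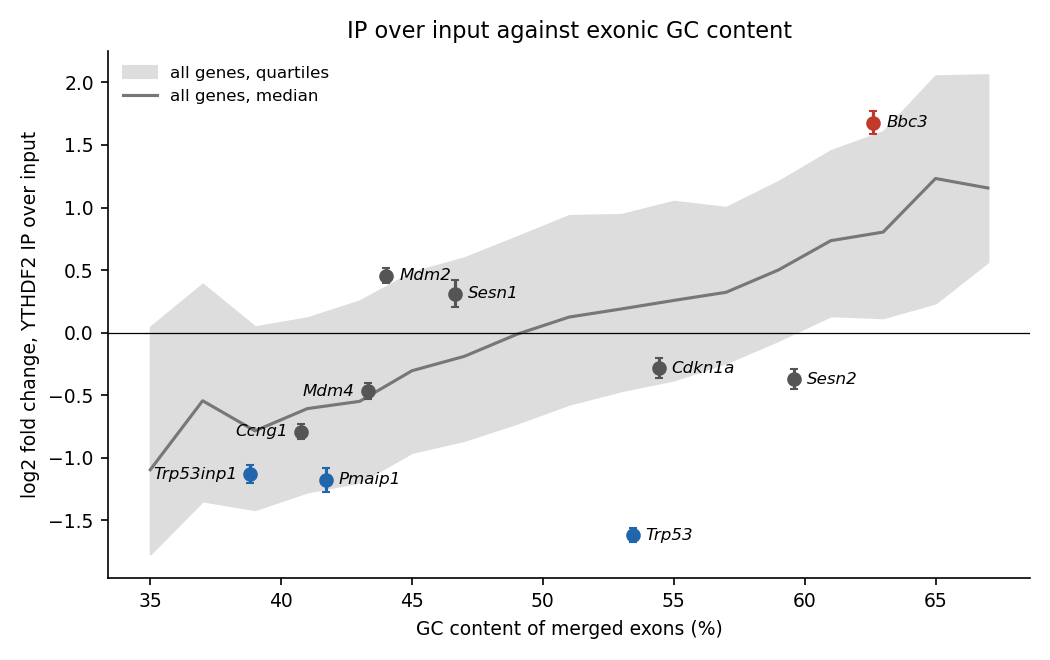
Log2 fold change of YTHDF2 IP over input against the GC content of the merged exons, with the median (line) and quartiles (band) of all genes in bins of GC content and the 10 members with their SE. Bbc3, at 62.6% GC, lies where the median of all genes is also above 0, whereas Trp53, at 53.4% GC, lies below the band.

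The density of GGACT over merged exons did not order the members by their values. Across all genes the lowest quartile of density, up to 0.6 per kilobase, had a median log2 fold change of −0.21, and the highest quartile, from 1.47 per kilobase, had a median of 0.25. The density was highest in Sesn2, at 3.39 per kilobase or percentile 98.7, followed by Cdkn1a at 1.97 and Bbc3 at 1.86. Of these only Bbc3 was higher in IP than in the input. It was lowest in Trp53inp1, at 0.368, and Trp53, at 0.437 per kilobase, both of which were depleted. In the longest curated transcripts, Bbc3 held 5 GGACT, with 1 in the coding sequence and 4 in the 3′UTR, and the 4 of Cdkn1a all lay in the 3′UTR. The part of the motif in these values was not tested.

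Paralogs of several members, which encode proteins of related function, were set beside them. They were found on both sides of the input, with 1 of 7 enriched and 2 depleted, where the shares among all genes were 15.0% and 13.0%. Trp53inp2, the paralog of Trp53inp1 that also acts in autophagy, was depleted as well, from 1575 counts to 790 and 733, with a log2 fold change of −1.09 ± 0.113 (SE). Ccng2, the paralog of Ccng1, was lower in IP at −0.96 ± 0.154 (SE) and under 2-fold. Sesn3 was at −0.074 ± 0.165 (SE) and not past the test, with an adjusted p of 0.73 by edgeR. Of the relatives of p21, Cdkn1b, which encodes p27, was depleted at −1.45 ± 0.124 (SE), whereas Cdkn1c, which encodes p57, was at −0.56 ± 0.337 (SE) and not past the test. Of the relatives of p53, Trp73 was enriched from 130 input counts to 422 and 401 IP counts, a log2 fold change of 1.62 ± 0.219 (SE), and Trp63 was at 0.025 ± 0.761 (SE) and not past the test. Trp53 and Trp73 thus stood on opposite sides of the input, and both passed the threshold.

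Over the 110 other genes of the p53 pathway that could be tested, of 111 listed, 16 were enriched and 16 were depleted, which is 14.5% each and near the shares of 15.0% and 13.0% among all genes. Their median log2 fold change was −0.11. Among 18 activators and modifiers of p53, 3 were depleted and 0 enriched, with a median of −0.22, and Chek1, a checkpoint kinase that phosphorylates p53, was at −1.40 ± 0.093 (SE). Among 12 other inhibitors of p53, 2 were enriched and 1 was depleted, namely Hdac1, a histone deacetylase, at −2.28 ± 0.065 (SE). Of 7 genes named for p53, 2 were enriched, the kinase genes Trp53rkb at 2.56 ± 0.099 (SE) and Trp53rka at 1.75 ± 0.085 (SE), whose transcripts are 98.5% identical over 959 bases.

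Among targets of p53, the list for arrest and repair had 5 enriched and 3 depleted genes of 19, among them Sfn, which encodes the 14-3-3 protein sigma, at 1.42 ± 0.081 (SE), and Pcna, the sliding clamp of DNA replication, at −2.07 ± 0.055 (SE). The enriched gene with the fewest counts in that list had 8 in the input and 78 and 43 in IP. The list for apoptosis had 3 enriched genes and 1 depleted gene of 15, and Phlda3, an inhibitor of AKT signalling, rose from 2712 input counts to 12056 and 12173 IP counts, at 2.12 ± 0.065 (SE). Of 11 tested targets in metabolism and stress, 1 was depleted and 0 were enriched, with a median of 0.41. The depleted gene had only 36 counts in the input and 3 and 8 in IP, and 40.6% of its exonic length overlaps a gene on the other strand. The list of the BCL2 family, which holds survival genes and also other BH3-only genes, had 3 enriched genes and 0 depleted genes of 10. Among the enriched was the BH3-only gene Bmf at 1.48 ± 0.111 (SE), and the one with the fewest counts had 19 in the input and 57 and 50 in IP. The cyclins and kinases that p21 binds had 0 enriched and 5 depleted genes of 10 and a median of −0.78, with Cdk2 at −2.19 ± 0.098 (SE) and Ccnd3 at −1.68 ± 0.063 (SE). Among all genes, 15.0% were enriched and 13.0% were depleted, and each of these lists is described by its counts alone. Hdac1, Pcna, Ccnd3, Sfn, Trp53rka and Trp53rkb have other loci in the genome that are at least 95.5% identical over part of the transcript, so their counts are less certain. Of the members, Trp53 and Mdm4 have less similar copies. That of Trp53 on chromosome 17 is 87.6% identical over 1792 bases, and that of Mdm4 on chromosome X is 81.8% identical over 7169 bases.

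**Figure D5:**
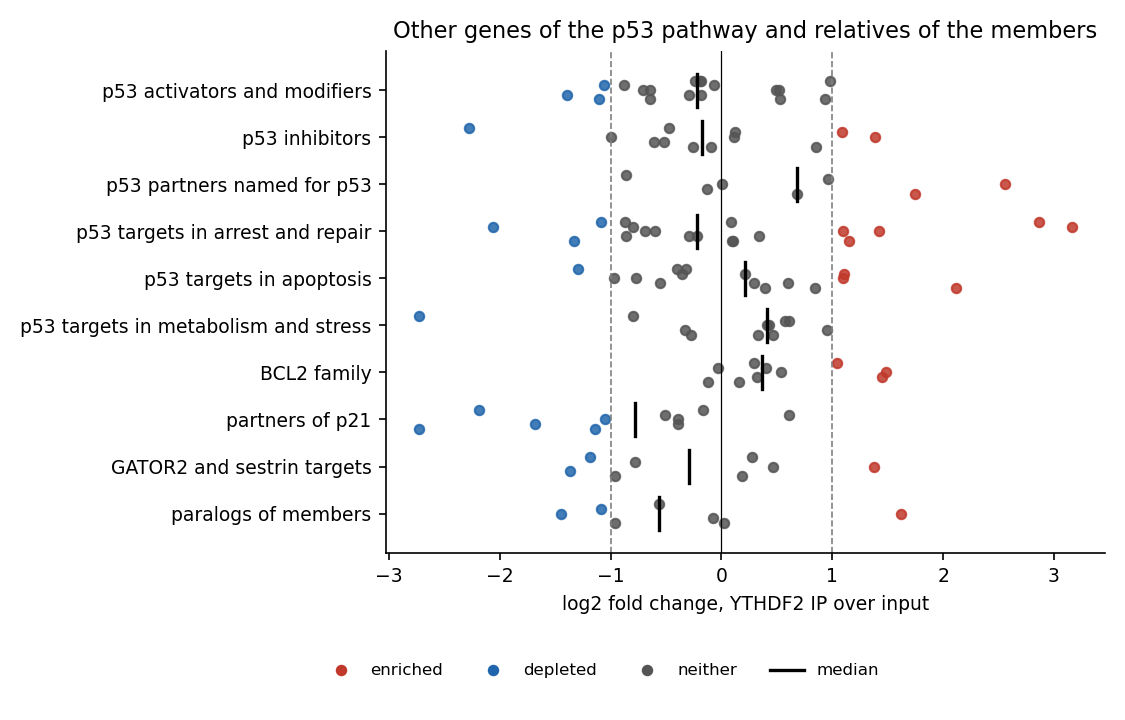
Log2 fold change of YTHDF2 IP over input for genes of 10 lists around the p53 network, with 1 point per gene coloured by its call, black bars at the median of each list and dashed lines at the 2-fold threshold. Points lie on both sides of 0 in every list, and the list of the partners of p21 has the lowest median, at −0.78.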

How the data were processed

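RIP-seq libraries were grouped by their titles (1 input, 2 YTHDF2 IP). Per the methods, the IP was made from a cell lysate, whereas the labels describe RNA extracted with Trizol before the IP, and which was done cannot be told. The deposited table gives raw counts, summed by gene over exons. Per the file headers the authors used featureCounts 2.0.3 on mm10 RefSeq genes, counting each mate separately and not using strand, and the submitters' processing notes name fastp 0.19.4, HISAT2 2.2.1 and DESeq2 1.40.2. By default, reads that map to several places or genes are left out, and no exon of a member overlaps another gene. Exons of some other listed genes do overlap one on the other strand. Among the partners of p21 this covers up to 52.3% of the exonic length, and 14.3% in Ccnd3.

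IP was compared with input in edgeR 4.0.16 (R 4.3.3) with filterByExpr, TMM scaling and the robust quasi-likelihood F test with 1 residual degree of freedom. Each SE is the absolute log2 fold change divided by the square root of the F statistic. It thus has the limits of the p-value and holds no variation between inputs. CPM was scaled by TMM (factors 0.957, 1.02 and 1.02), and TPM used merged exons on the main chromosomes. Ratios of single libraries used a pseudocount of 0.5. Trends were lowess fits with a span of 0.3. Copies of transcripts were located with minimap2 2.31. A count of 3 corresponds to between 0.0819 and 0.0848 CPM, and read counts without molecular identifiers cover counting error only.

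The members and gene lists were chosen with earlier results of these data known. All members and their paralogs were named, and of the other lists the 5 highest and 5 lowest called genes that averaged 10 CPM or more. Alternatives were other size factors, library totals, TPM, no filter, DESeq2 1.42.0, a fixed dispersion of 0.1, halved counts, no mitochondrial genes, the GC and length trends, leaving out each IP library and, chosen after seeing the data, the exon density trend and a fit without the robust option.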

Additional observations from a re-analysis of the deposited data

How the results depend on the processing

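No paired analysis was possible because there was 1 input, without a replicate number to match to an IP library. Over 14 alternatives for each of the 10 members, 133 of 140 values kept their direction and their side of the threshold, 6 lost the call, 1 gained it and 0 reversed. Of the members under 2-fold, none of the 6 had an adjusted p under 0.05 with the fixed dispersion of 0.1, Sesn1 did not in DESeq2 and Cdkn1a did not under scaling to TPM. Trp53 was over 2-fold lower under every alternative run, between −1.86 and −1.37, with adjusted p-values of edgeR or DESeq2 up to 0.0231 where there was a test, which the fits without an IP library do not give. The removal of a trend shifts the fold and leaves the p-value as it was. With the GC trend removed, 0 members were enriched and 1 was depleted, namely Trp53, while Bbc3 at 0.80, Pmaip1 at −0.63 and Trp53inp1 at −0.48 lost their calls. Over all genes 2617 were then enriched and 2224 depleted. With the exon density trend removed, chosen after seeing the data, Ccng1 at −1.01 joined the depleted members. With the fixed dispersion of 0.1, 1 member was depleted, and over all genes 1577 were enriched and 1531 depleted, compared with 2936 and 2543. Trp53inp1 lost its call under scaling to TPM, at −0.98, where the median of all genes rose by 0.148. The median of the members was −0.32 with library totals, −0.27 with TPM, −0.40 with no filter on low counts, −0.34 with the GC trend removed, −0.45 with the length trend removed and −0.56 with the exon density trend removed. Leaving out either IP library, it was between −0.42 and −0.40, with no test possible, since no residual degrees of freedom remain. With 1 input, no change has an error from the input side, and each member had at least 962 counts in every library.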

Other observations

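Sestrins act on mTORC1 through the GATOR2 complex and on AMPK, and transcripts of these partners lay on both sides of the input. Of 8 genes in this list, 1 was enriched and 2 were depleted, with a median log2 fold change of −0.29. Among all genes 15.0% were enriched and 13.0% depleted. Wdr24, a GATOR2 subunit, rose from 981 input counts to 2612 and 2634 IP counts, at 1.38 ± 0.095 (SE). Both genes of the catalytic subunit of AMPK were depleted, with Prkaa1 at −1.19 ± 0.113 (SE) and Prkaa2 at −1.37 ± 0.15 (SE). Their exonic GC content is 40.18% and 40.44%, and all genes in the bin around 41% had a median of −0.61. For Wdr24, at 56.05%, the median of the bin around 57% was 0.32. The part of GC content in these values was not tested. These genes were named after their values were seen.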
